A study of Mus musculus with 6 samples.

Results

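Matrix metalloproteinases (MMPs), ADAMTS proteases, ADAMTS-like proteins and the tissue inhibitors of metalloproteinases (TIMPs) were compared between neurospheres grown with norepinephrine (N) and with potassium chloride (K). Members were taken by symbol alone: Mmp, Adamts, Adamtsl or Timp followed by a number and, for some, a letter. Of the 19937 genes measured by an array cluster of their own, 49 fitted, namely 22 MMP, 18 ADAMTS, 5 ADAMTS-like and 4 TIMP genes. Mmp15 and Adamts2 were not analysed here.

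Neurospheres are floating colonies that neural precursor cells form in culture. Hippocampal tissue of adult male C57BL/6J mice, 8 to 12 weeks old, was dispersed to single cells and cultured in neurosphere medium with the growth factors EGF and bFGF, to which either 10 µM norepinephrine or 15 mM KCl was added. Primary neurospheres, which the labels call small neurospheres, were taken on day 14, and 3 biological replicates per group were hybridised to Affymetrix whole-transcript mouse arrays. Both groups therefore shared the growth factors, and no untreated spheres were among the arrays, so a difference says only how N stood to K. Each value is a log2 robust multi-array average (RMA) value of 1 transcript cluster, that is, of the probes covering 1 transcribed region, and log2FC is the mean of the N arrays minus the mean of the K arrays. In cultured spheres, fewer cells of a type and less RNA per cell cannot be told apart.

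MMPs and ADAMTS proteases are zinc-dependent enzymes that cut proteins outside the cell. MMPs degrade collagens, basement membrane proteins, growth factors and receptors, while many ADAMTS proteases cut proteoglycans such as aggrecan, brevican and versican, which are abundant in brain matrix. TIMPs bind the active site of these enzymes and block them, and Timp3 also inhibits several ADAMTS proteases. ADAMTS-like proteins carry the matrix-binding modules of the ADAMTS family without the protease domain. In the hippocampus, these genes are known for remodelling the matrix around precursor cells, growing processes and synapses.

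Over all clusters, K replicate 3 resembled its own group least (mean correlation 0.948). K replicates 1 and 2 were slightly closer to the N arrays (0.955 and 0.969) than to the rest of the K group (0.953 and 0.954). Among the 49 members, K replicate 3 held the highest of the 6 values for 14 and K replicate 1 for 13, against 5 on each N array. Over all genes, the same arrays held the highest value for 27.4% and 22.3%, against 11.6% to 14.0% on the N arrays. In 25 of the 49 members, the mean value lay below the median of all clusters (6.34), beside 8680 of all 19937 genes. The 25 members are called dim here. With 3 arrays against 3, an exact permutation test of 1 gene cannot give a two-sided p below 0.1, so the calls rest on limma, which pools the spread over all genes.

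No member passed the adjusted p threshold of 0.05 (Benjamini-Hochberg over all genes, limma), which 31 genes or 0.155% of all genes did. The smallest adjusted p in the family was 0.263, for Adamtsl3. At an unadjusted P under 0.05, 8 of 49 members (16.3%) were called, against 8.54% of all genes. Of these 8, Timp1, Timp2, Mmp2 and Adamtsl3 were higher with N (8.16% of members, against 4.64% of all genes), and Timp4, Mmp16, Mmp25 and Adamts12 were lower (8.16%, against 3.89%). Positive and negative sets were formed anew from the limma values and are not the study's own sets. None of the 49 entered the positive set, which needs a log2FC over 1 in size with a P under 0.05 and held 0.492% of all genes. The negative set, with a log2FC under 0.1 in size and a P over 0.1, took 21 members (42.9%), against 41.7% of all genes. N and K arrays did not overlap in 10 members (20.4%), against 13.3% of all genes. Every N array lay above every K array in 5 members, against 5.78% of all genes, and below in 5, against 7.55%.

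**Figure D1:**
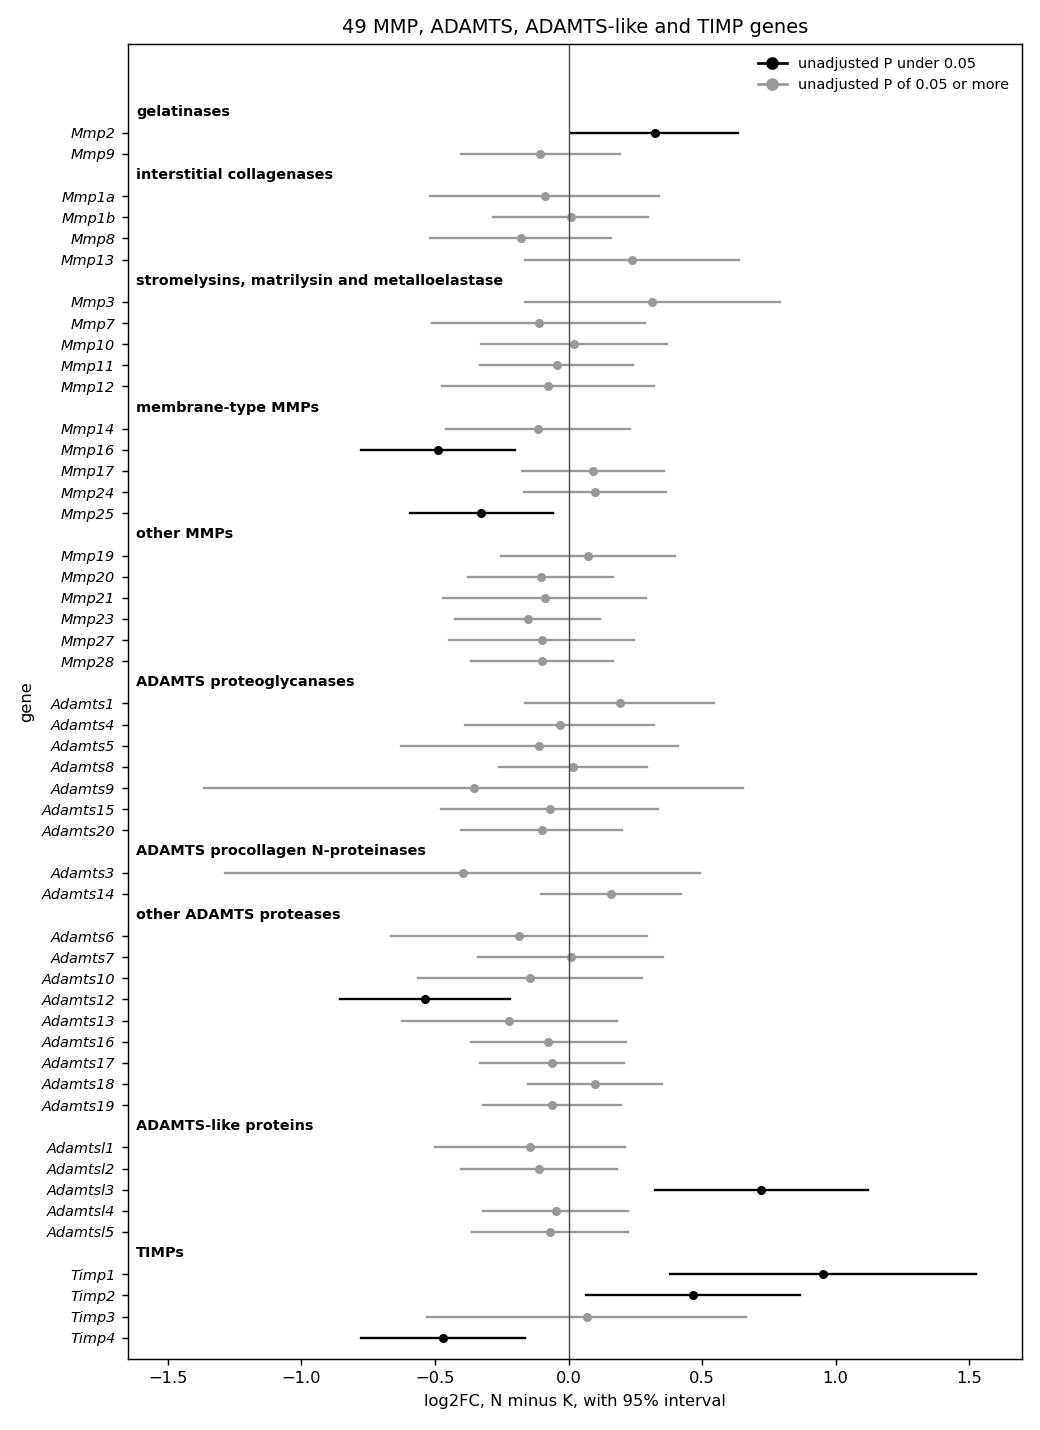
log2FC (N minus K, horizontal axis) with its 95% interval from limma for the 49 genes, arranged by role (vertical axis), with black for an unadjusted P under 0.05 and grey for the others. The 8 black genes lie between -0.54 for Adamts12 and 0.95 for Timp1, and the widest intervals are those of Adamts9 and Adamts3.

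The spread within the family was small for most members. Across all 49, the median log2FC was -0.08 (17 positive and 32 negative), beside -0.03 over all genes. For 36 members log2FC was under 0.2 in size, and the 41 without a call ran from -0.40 to 0.31. The 95% interval lay within a log2FC of -1 to 1 in 45 members, the exceptions being Timp1, Adamtsl3, Adamts3 and Adamts9. In 33 members it also lay within a 1.5-fold change either way.

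Of the 4 TIMPs, Timp1 and Timp2 were higher with N at an unadjusted P under 0.05, Timp4 was lower, and Timp3 gave no call. The inhibitors thus did not move as 1 block between N and K.

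Timp1, a secreted inhibitor that reactive astrocytes are known to make, lies on chromosome X from 20870166 to 20874737 (GRCm38.p6). Its log2 values were 7.15, 6.91 and 7.60 on the N arrays and 6.48, 6.59 and 5.74 on the K arrays. All N arrays lay above all K arrays, with K replicate 3 lowest by a wide margin. The log2FC was 0.95, the largest in size among the members, with a standard error of 0.25, a P of 0.00462 and an adjusted p of 0.294 from limma. Without K replicate 3 the log2FC was 0.69, and it stayed at a P under 0.05 without any 1 array. It exceeded 1 when N replicate 2 (1.11), K replicate 1 (1.06) or K replicate 2 (1.11) was left out.

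Timp2 is the inhibitor that also takes part in activating pro-MMP2 at the cell surface, together with Mmp14. Values of 7.87, 8.22 and 8.13 with N stood against 7.42, 7.96 and 7.45 with K. The groups overlapped, since K replicate 2 lay above N replicate 1. The log2FC was 0.47, with a standard error of 0.18, a P of 0.0277 and an adjusted p of 0.517 from limma. The call was lost without N replicate 2 (log2FC 0.39), N replicate 3 (0.44), K replicate 1 (0.37) or K replicate 3 (0.39).

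Timp4, an inhibitor with high expression in brain and heart, ran the other way. On the N arrays it gave 8.56, 8.45 and 8.44, and on the K arrays 9.05, 8.73 and 9.08. The N arrays lay close together (SD 0.07) and all below the K arrays (SD 0.20). The log2FC was -0.47, with a standard error of 0.14, a P of 0.00751 and an adjusted p of 0.350 from limma. It ranged from -0.58 to -0.41 over the 6 fits that each left out 1 array.

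Timp3, the matrix-bound inhibitor that also acts on ADAMTS proteases and ADAM sheddases, gave 8.16, 8.45 and 8.57 with N and 8.38, 8.87 and 7.73 with K. K replicates 2 and 3 bounded all other arrays from above and below. The log2FC of 0.07 carried a standard error of 0.26 and a 95% interval from -0.53 to 0.66 (adjusted p = 0.967, limma), and it was -0.23 without K replicate 3.

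**Figure D2:**
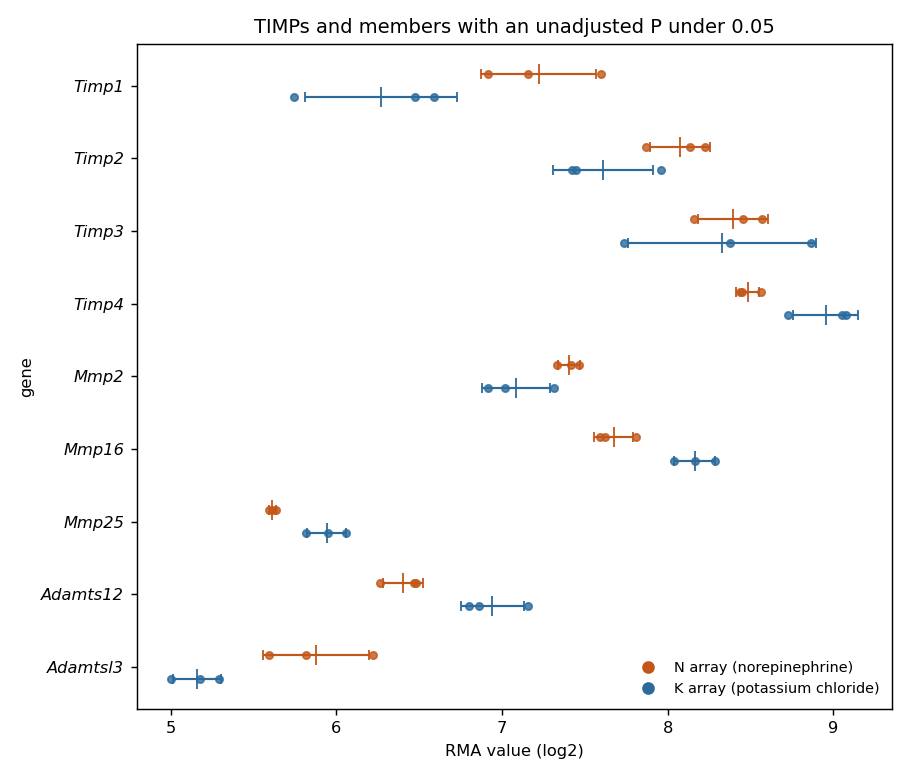
Log2 RMA values (horizontal axis) of the 4 TIMPs and of the other members with an unadjusted P under 0.05 (vertical axis), with points for the 3 N and the 3 K arrays and bars for mean ± SD. Timp1, Mmp2 and Adamtsl3 have every N array above every K array, Timp4, Mmp16, Mmp25 and Adamts12 have every N array below, and Timp2 and Timp3 overlap.

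The inhibitors other than Timp2 lie inside synapsin genes, which code for proteins of synaptic vesicles: Timp1 within Syn1, Timp3 within Syn3 and Timp4 within Syn2. The synapsin hosts, looked up after the TIMP values were known, gave no call. Syn1 had a log2FC of 0.05, Syn2 of 0.03 and Syn3 of 0.15, with adjusted p values of 0.946, 0.975 and 0.845 from limma and overlapping groups in each.

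Of the gelatinases, which cut denatured collagen and basement membrane collagen, Mmp2 was higher with N and Mmp9 was not called. Mmp2 gave 7.47, 7.33 and 7.41 on the N arrays and 7.31, 7.02 and 6.92 on the K arrays. The groups were separated by only the gap between N replicate 2 and K replicate 1. The log2FC was 0.32, with a standard error of 0.14, a P of 0.0449 and an adjusted p of 0.570 from limma. The call ended without N replicate 1 (log2FC 0.29), N replicate 2 (0.36), N replicate 3 (0.32), K replicate 2 (0.29) or K replicate 3 (0.24).

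Mmp9, the other gelatinase, gave 5.67, 5.68 and 5.50 with N and 5.71, 5.57 and 5.89 with K. These dim values overlapped, at a log2FC of -0.11 with a standard error of 0.13 and an adjusted p of 0.873 from limma.

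Membrane-type MMPs are anchored in the plasma membrane and cut matrix and surface proteins next to the cell. Of the 5 measured, Mmp16 and Mmp25 were lower with N, while Mmp14, Mmp17 and Mmp24 gave no call. Mmp16, known to be expressed in brain and to activate pro-MMP2, gave 7.59, 7.62 and 7.81 with N and 8.04, 8.28 and 8.16 with K. Every N array was below every K array, with a similar SD of 0.12 in each group. The log2FC was -0.49, with a standard error of 0.13, a P of 0.00428 and an adjusted p of 0.291 from limma. It stayed between -0.56 and -0.43 when arrays were left out in turn.

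Mmp25, a membrane-type MMP held by a lipid anchor and best known from leukocytes, gave 5.61, 5.63 and 5.59 with N and 5.95, 5.82 and 6.06 with K. These values lie below the median of all clusters, and the groups were apart. The log2FC was -0.33, with a standard error of 0.12, a P of 0.0228 and an adjusted p of 0.493 from limma. The call did not hold without N replicate 1 (log2FC -0.33), N replicate 2 (-0.34), N replicate 3 (-0.32), K replicate 1 (-0.32) or K replicate 3 (-0.27).

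Mmp14, the main activator of pro-MMP2, gave 7.90, 7.56 and 7.81 with N and 7.93, 8.04 and 7.64 with K, overlapping groups with a log2FC of -0.11 (standard error 0.15, adjusted p = 0.882, limma). Mmp17, another lipid-anchored MMP, gave 6.49, 6.44 and 6.37 with N and 6.32, 6.26 and 6.45 with K (log2FC 0.09, standard error 0.12, adjusted p = 0.877, limma). Mmp24, which is expressed mainly in the nervous system, gave 6.30, 6.32 and 6.48 with N and 6.33, 6.22 and 6.25 with K (log2FC 0.10, standard error 0.12, adjusted p = 0.865, limma).

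The secreted collagenases and stromelysins, apart from Mmp11 on chromosome 10, sit in a single block of the genome. Mmp13, Mmp12, Mmp1b, Mmp3, Mmp1a, Mmp10, Mmp8, Mmp27, Mmp20 and Mmp7 lie on chromosome 9 between 7272514 and 7699585 (GRCm38.p6), and all 10 protein-coding genes of this span of 427 kb in the RefSeq annotation are MMPs. None of the 10 was called, and in none were the groups apart. Log2FC ran from -0.18 (Mmp8, neutrophil collagenase) to 0.31 (Mmp3, stromelysin 1), with no P under 0.170. The means of 9 of the 10 lay below the median of all clusters, the exception being Mmp12, the macrophage metalloelastase, at 6.78 with N and 6.85 with K. Mmp1a and Mmp1b are close copies of each other, so their probes may read both.

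Mmp3 gave 5.82, 5.88 and 6.63 with N and 5.87, 5.70 and 5.82 with K, where N replicate 3 stood above the other 5 arrays, which lay close together. Mmp13, the main rodent interstitial collagenase, gave 5.39, 5.18 and 5.76 with N and 5.28, 4.99 and 5.36 with K, again highest on N replicate 3. For Mmp3, the 95% interval of log2FC ran from -0.16 to 0.79, and for Mmp13 from -0.16 to 0.64.

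Promoters of this block share sequence letters that the rule on symbols did not use. Promoters (250 bases before to 50 after a start, RefSeq, GRCm38.p6) were held for 34 of the 49 members, 37 promoters in all. The letters TGANTCA, with any base at the middle place, were searched on both strands. Among them are TGAGTCA and TGACTCA, the AP-1 site at which Fos and Jun proteins bind. TGANTCA stood in 8 of these 37 promoters, those of Mmp1a, Mmp1b, Mmp3, Mmp7, Mmp10, Mmp12, Mmp13 and Mmp20, and in 7.81% of all promoters. The Mmp20 match was TGAATCA, which is neither form of the AP-1 site. All 8 belong to the chromosome 9 block, and the first base of the match lay between 35 (Mmp13) and 95 (Mmp20) bases before the start. TATAAA, the letters of a TATA box, stood in 12 of the 37 promoters, against 13.6% of all promoters. TGACG, the core letters of a cAMP response element, stood in 6 of the 37 (Adamts1, Adamts3, Adamts9, Adamts12, Adamtsl3 and Timp1), against 20.8% of all promoters. The block did not share these letters throughout: Mmp8 held no TGANTCA, and in Mmp12 the TATAAA letters lay 5 bases after the start. For Mmp27 no match of any of these letters was found among the promoters held. These do not cover every member, so its promoter may not have been searched. A match is no evidence of binding.

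The 100 bases before the start are given 5′ to 3′ on the gene's strand for 4 genes of the block, picked as examples that hold both sets of letters there, and for Timp1, the member with the largest log2FC. Capitals mark TGANTCA and TATAAA in the Mmp genes and TGACG in Timp1.
Mmp3, chr9:7445722-7445821, plus strand: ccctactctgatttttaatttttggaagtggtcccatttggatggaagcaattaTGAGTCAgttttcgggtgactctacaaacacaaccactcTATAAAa
Mmp10, chr9:7502242-7502341, plus strand: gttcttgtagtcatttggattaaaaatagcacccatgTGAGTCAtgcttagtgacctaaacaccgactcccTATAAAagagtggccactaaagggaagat
Mmp13, chr9:7272414-7272513, plus strand: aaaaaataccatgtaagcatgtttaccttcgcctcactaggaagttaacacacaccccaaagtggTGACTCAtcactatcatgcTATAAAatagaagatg
Mmp7, chr9:7691990-7692089, plus strand: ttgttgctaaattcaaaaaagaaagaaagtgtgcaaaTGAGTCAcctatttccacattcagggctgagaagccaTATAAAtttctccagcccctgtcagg
Timp1, chrX:20870066-20870165, plus strand: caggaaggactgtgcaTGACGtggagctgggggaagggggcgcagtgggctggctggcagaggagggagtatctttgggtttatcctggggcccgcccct
In each of the 4 Mmp windows the TGANTCA letters come before the TATAAA letters. The 4 genes had log2FC values of 0.31 (Mmp3), 0.02 (Mmp10), 0.24 (Mmp13) and -0.11 (Mmp7), none of them called.

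The remaining MMPs gave no call. Mmp19, Mmp21, Mmp23 and Mmp28 had log2FC values of 0.07, -0.09, -0.15 and -0.10, and Mmp11, stromelysin 3, of -0.04. In Mmp23 alone of these 5 were the groups apart, with 6.20, 6.15 and 6.23 on the N arrays and 6.48, 6.32 and 6.24 on the K arrays, where N replicate 3 and K replicate 3 nearly met (adjusted p = 0.795, limma).

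The ADAMTS proteoglycanases, which cut the lecticans of brain matrix, gave no call among 7 genes. Adamts1, which also binds heparan sulfate and restrains vessel growth, gave 8.78, 8.62 and 8.47 with N and 8.28, 8.30 and 8.71 with K. N was higher on most arrays, with K replicate 3 among the highest values. The log2FC was 0.19 (standard error 0.16, adjusted p = 0.803, limma). Without K replicate 3 it was 0.33, at an unadjusted P under 0.05.

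The aggrecanases Adamts4 and Adamts5 overlapped between the groups. Adamts4 gave 6.74, 6.37 and 6.43 with N and 6.77, 6.39 and 6.48 with K (log2FC -0.03, standard error 0.16, adjusted p = 0.974, limma). For Adamts5 the values were 7.45, 6.83 and 7.59 with N and 7.44, 7.69 and 7.08 with K (log2FC -0.11, standard error 0.23, adjusted p = 0.931, limma). Both log2FC values changed sign when single arrays were left out. Adamts8, Adamts15 and Adamts20 had log2FC values of 0.02, -0.07 and -0.10.

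Adamts9, a proteoglycanase that cuts versican and aggrecan, was the most variable member. Its brightest cluster gave 9.62, 9.88 and 8.75 with N and 9.99, 10.56 and 8.77 with K, and the lowest array of each group was replicate 3. The log2FC was -0.36, with a standard error of 0.44 and an adjusted p of 0.873 from limma. Without K replicate 2 it was 0.04, and without K replicate 3 it was -0.86, the latter at an unadjusted P under 0.05.

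For Adamts9 the array holds 6 clusters, and they did not give 1 answer. In a fit over all clusters, log2FC ran from -1.47 to 0.31, negative in 5 of the 6. The cluster at -0.48 had N values of 7.24, 7.03 and 7.20 and K values of 7.82, 7.46 and 7.61 (standard error 0.14). Another, at -0.44, had 7.56, 7.48 and 7.85 with N and 7.96, 7.89 and 8.36 with K (standard error 0.18). In both, the unadjusted P was under 0.05 and all N arrays lay below all K arrays, unlike in the brightest cluster, which stands for the gene by the rule. The lowest log2FC, -1.47, belonged to a cluster with 7.27, 6.23 and 7.39 with N and 7.45, 7.95 and 9.89 with K. There too all N arrays lay below all K arrays, at an unadjusted P of 0.0683 from limma. Its K values were spread over more than the difference itself. The mean of all 6 clusters gave a log2FC of -0.44 (adjusted p = 0.385, limma), at an unadjusted P under 0.05.

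**Figure D3:**
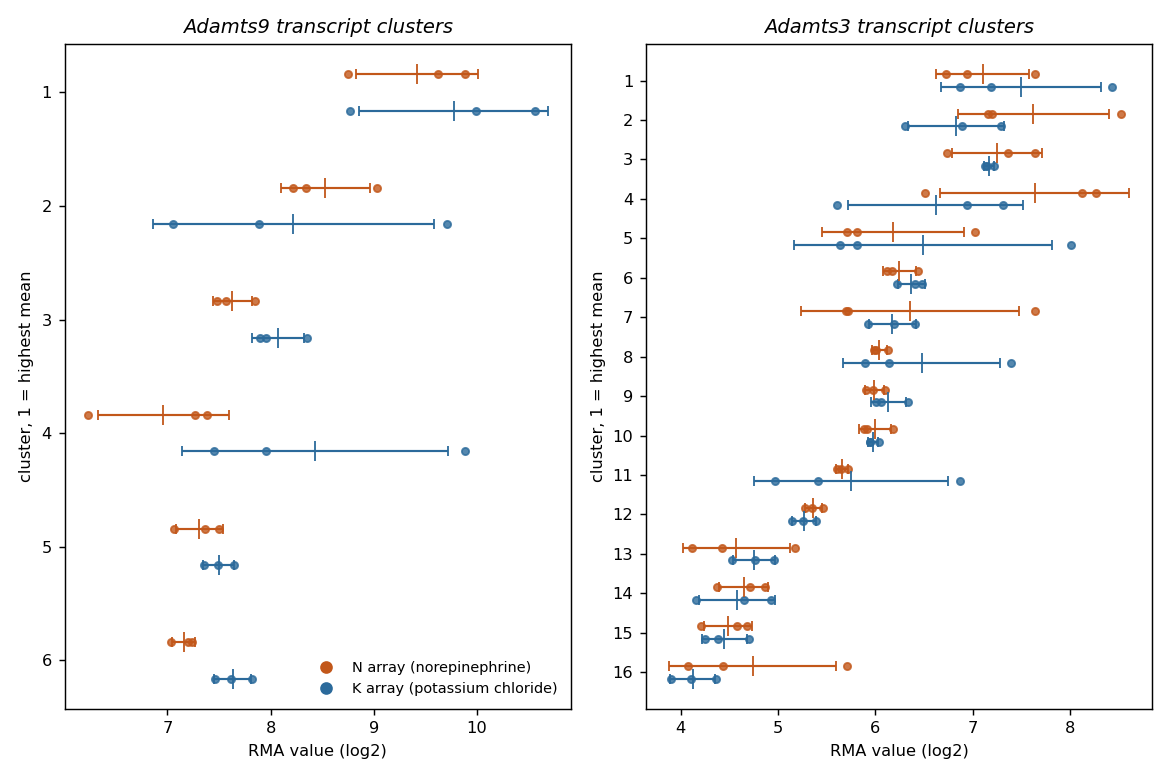
Log2 RMA values (horizontal axis) of every cluster named for Adamts9 (6 clusters) and Adamts3 (16 clusters), numbered by mean from the highest (vertical axis), with points for the 3 N and the 3 K arrays and bars for mean ± SD. Clusters of the same gene differ in the size and sign of the N to K difference.

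Adamts3, a procollagen N-proteinase that trims the amino end of fibrillar procollagen, was split over 16 clusters, 9 with a positive and 7 with a negative log2FC, from -0.43 to 1.02, none of them at a P under 0.05. Its brightest cluster gave 7.64, 6.94 and 6.73 with N and 6.88, 7.19 and 8.43 with K (log2FC -0.40, 95% interval -1.29 to 0.49). The mean of that cluster was only 0.07 above the next. Adamts14, another procollagen N-proteinase, gave 6.62, 6.51 and 6.50 with N and 6.30, 6.40 and 6.45 with K, apart but close (log2FC 0.16, adjusted p = 0.775, limma).

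Among the 9 remaining ADAMTS proteases, Adamts12 alone was called. Adamts12, which cuts cartilage oligomeric matrix protein, gave 6.47, 6.48 and 6.26 with N and 6.80, 6.86 and 7.16 with K. Every N array was below every K array. The log2FC was -0.54, the lowest among the members, with a standard error of 0.14, a P of 0.00432 and an adjusted p of 0.291 from limma. It ran from -0.61 to -0.43 with arrays left out in turn and kept a P under 0.05 each time.

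Of the other 8, 6 had a negative and 2 a positive log2FC. Adamts13, the protease of von Willebrand factor, was at -0.22 (adjusted p = 0.798, limma) and reached -0.40 without K replicate 2, at an unadjusted P under 0.05. Adamts6 was at -0.19 (adjusted p = 0.860, limma) and likewise at -0.42 without K replicate 3. Adamts18 was apart between the groups at a log2FC of 0.10 (adjusted p = 0.859, limma), with 6.11, 6.09 and 6.00 on the N arrays and 5.97, 5.96 and 5.97 on the K arrays. Adamts7, Adamts10, Adamts16, Adamts17 and Adamts19 had log2FC values of 0.01, -0.15, -0.08, -0.06 and -0.06.

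The ADAMTS-like genes held the member with the smallest P. Adamtsl3, also called punctin-2, is a secreted matrix protein without protease activity. It gave 5.82, 5.60 and 6.22 with N and 5.00, 5.29 and 5.18 with K. All N arrays were above all K arrays, at values below the median of all clusters. The log2FC was 0.72, with a standard error of 0.17, a P of 0.00285 and an adjusted p of 0.263 from limma, which put it at rank 214 by P over all genes. With arrays left out in turn, log2FC lay between 0.55 and 0.86. Adamtsl1, Adamtsl2, Adamtsl4 and Adamtsl5, of which Adamtsl2 and Adamtsl4 are known to bind fibrillin microfibrils, had log2FC values of -0.15, -0.11, -0.05 and -0.07, each with overlapping groups.

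Genes that these enzymes cut, or that act beside them, were read from 4 lists. No gene of the 4 lists passed the adjusted p threshold. Among the lecticans and net proteins, 2 of 12 were lower with N at an unadjusted P under 0.05 and 0 were higher (median log2FC -0.07), beside 3.89% lower and 4.64% higher among all genes. Tnr, the tenascin-R that links lecticans in perineuronal nets, gave 6.66, 7.15 and 6.94 with N and 7.87, 7.89 and 7.92 with K. Its log2FC was -0.98, with a standard error of 0.15 and an adjusted p of 0.0600 from limma, slightly larger in size than that of Timp1. Bcan, or brevican, a lectican that ADAMTS4 and ADAMTS5 cut, gave 8.36, 8.21 and 8.31 with N and 8.70, 8.80 and 9.07 with K (log2FC -0.56, standard error 0.14, adjusted p = 0.263, limma). The other lecticans Acan, Ncan and Vcan had log2FC values of 0.03, 0.27 and -0.29 without a call.

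The ADAM sheddases are membrane proteases that release surface proteins, and Timp3 inhibits some of them. They had 1 of 9 lower and 0 higher (median log2FC -0.13), a single gene beside the 3.89% of all genes called lower. Adam12 gave 8.72, 8.44 and 8.28 with N and 9.18, 9.05 and 9.07 with K (log2FC -0.62, standard error 0.14, adjusted p = 0.244, limma). Adam10 and Adam17, the main sheddases of Notch and of tumour necrosis factor, were at -0.11 and -0.01. The plasminogen system, whose plasmin activates pro-MMPs, gave no call among 6 measured genes, with log2FC from -0.10 to 0.23.

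Other regulators had 3 of 16 lower with N and 0 higher, beside 3.89% and 4.64% of all genes. The log2FC was negative in 14 of 16 (median -0.10), and over all genes in 11372 of 19937 (median -0.03). The 3 were A2m, the protease trap alpha-2-macroglobulin (log2FC -0.50), Pcolce, which enhances procollagen C-proteinase (-0.49), and Lrp1, the receptor that takes up MMPs and TIMPs (-0.26). In each of them every N array lay below every K array, at adjusted p values of 0.459, 0.443 and 0.577 from limma. Reck, a membrane-bound MMP inhibitor, was at 0.13 without a call.

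**Figure D4:**
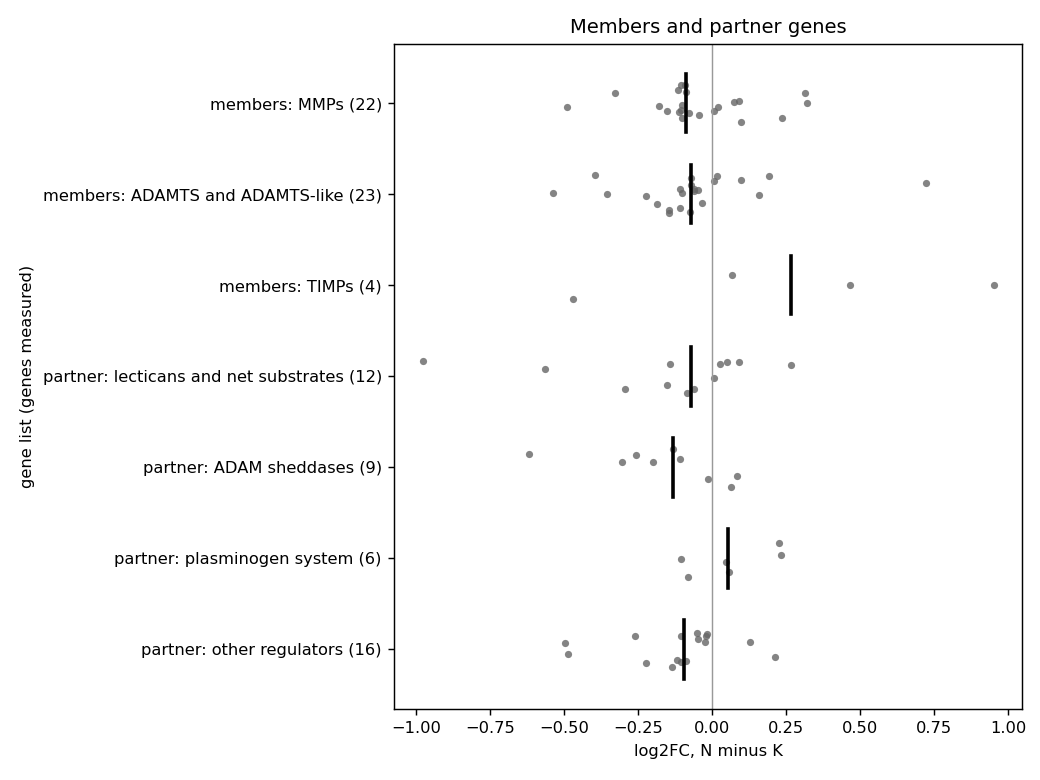
log2FC (N minus K, horizontal axis) of the members by family and of the genes in the 4 lists of substrates, sheddases, plasminogen genes and other regulators (vertical axis, with the number of genes measured), with a point per gene and a bar at the list's median. TIMPs spread from -0.47 to 0.95, and the lowest point of all is Tnr at -0.98.

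The cell types of the spheres were checked by marker lists. The 9 precursor markers averaged 9.07 to 9.26 on all 6 arrays. Over all genes, 4.64% were called higher with N and 3.89% lower at an unadjusted P under 0.05. Of 9 astrocyte markers, 8 had a positive log2FC, as did 8565 of all 19937 genes, and 7 were called higher with N. Gfap, the astrocyte filament gene, passed the adjusted threshold (log2FC 1.66, adjusted p = 0.0358, limma), as did 0.155% of all genes. The astrocyte list summed to 80.1 to 84.0 on the N arrays and 75.0 to 76.0 on the K arrays, without overlap. The oligodendrocyte lineage list, with 0 of 7 genes called, summed to 53.6 to 53.8 on the N arrays and 53.9 to 54.6 on the K arrays, so its sums did not overlap either and were lower with N. Lists of microglia and macrophages and of endothelial cells gave no call, and that of pericytes and fibroblasts 1 of 9, higher with N. The summed levels were 52.3 to 54.4 with N and 52.5 to 54.9 with K for microglia and macrophages, with 7 of 9 markers below the median of all clusters, and 54.7 to 55.7 and 53.9 to 55.4 for pericytes and fibroblasts, with 5 of 9 below. Neuron markers had 2 of 6 called higher and 1 lower, and precursor markers 2 of 9 higher and 1 lower, beside the same shares of all genes. The part of these cell types in the values of the members was not tested.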

How the data were processed

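RNA of neurospheres grown with N or K was measured on 6 Affymetrix arrays, 3 per group by the labels. The authors made 1 log2 value per transcript cluster from the scanned images with RMA in Partek, and these deposited log2 values were used as they stand; versions are not given in the sources used here. RMA normalizes arrays to each other, but the deposited values did not share 1 distribution: medians ran from 6.30 to 6.40, and the width between the 10th and 90th percentiles ranged from 4.85 (K replicate 3) to 5.14 (N replicate 1). Quantile normalization on top moved the number of genes past the adjusted p from 31 to 12. Of 34760 clusters, 21640 carried 1 symbol in the platform annotation. The cluster with the highest mean stood for each of 19937 genes, and 4 members had more than 1 cluster. N minus K was fitted with limma 3.58.1 (lmFit and eBayes) in R 4.3.3 over all genes, without further terms, and p-values were adjusted by Benjamini-Hochberg over all of them. The fit was tested on simulated data. The thresholds of the positive and negative sets follow the study's methods, while the P-values and genes are those of the limma fit. All members are named, and values on all arrays are given for TIMPs, gelatinases, membrane-type MMPs, the main ADAMTS proteoglycanases and members with a P under 0.05 or a log2FC over 0.5 in size. Those for Mmp3, Mmp13, Mmp23, Adamts3, Adamts14, Adamts18 and the synapsins were chosen after their values were seen. Up to 4 genes with the smallest P were to be named per list of partner genes; Acan, Ncan, Vcan, Adam10, Adam17 and Reck were named besides. The members and lists were chosen with earlier results of these data known. Coordinates and promoters are from RefSeq (GRCm38.p6). Alternatives were other normalizations, moderation, filters, cluster choices and thresholds, the replicate number as a block, and each array left out. The number of arrays limits the precision. Figures were drawn with matplotlib 3.10.9.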

Additional observations from a re-analysis of the deposited data

How the results depend on the processing

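In every alternative run, 0 members passed the adjusted p threshold. Over all genes, the 31 calls became 1 with an ordinary linear model, 12 with quantile normalization, 12 with cyclic loess normalization, 3 with arrays centred on the median, 0 over all transcript clusters, and 0 to 21 with 1 array left out (0 with any of N replicates 1 and 2 and K replicate 1 absent, 4 without N replicate 3 and 9 without K replicate 3). The 8 members at an unadjusted P under 0.05 became 5 among genes above the median of all clusters, where Adamtsl3 and Mmp25 were not tested and Mmp2 was not called. Of the 11257 genes above that median, 1140 were called. With 1 array left out, 5 to 8 members were called (5 without N replicate 2 or N replicate 3). Of all 19937 genes, 1251 (without N replicate 1) to 2912 (without K replicate 2) were then called, beside 1702 with all arrays. Without K replicate 2, where 2912 genes were called, 8 of 49 members were. Members in the positive set numbered 0 to 1 with 1 array left out, the 1 being Timp1, and 2 at a 1.5-fold threshold. The positive set was not counted over all genes in these runs, so its member counts have no background beside them. Adamts12, Mmp16, Timp1, Timp4 and, where tested, Adamtsl3 kept a P under 0.05 under every alternative. Adamts4 changed sign with cyclic loess normalization (0.0014) and ranged from -0.15 to 0.0804 with 1 array left out. Ranges that crossed 0 were also found for Adamts5 (-0.27 to 0.12), Adamts9 (-0.86 to 0.038) and Timp3 (-0.23 to 0.34). The cause was not tested. Deviations from the group means correlated at 0.043, 0.043 and 0.121 between same-numbered arrays, and from -0.144 to 0.113 between the others. N replicates 2 and 3 correlated best with the K array of their own number, and N replicate 1 with K replicate 2 (0.113). Whether the replicate numbers pair the arrays cannot be told from these weak values. With the replicate block, 41 genes and 0 members passed the adjusted p. An unadjusted P under 0.05 was then reached by 8 members, beside 1874 of all 19937 genes.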
